A study of Mus musculus with 27 samples.

Results

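Collagen and laminin genes were examined as a group of 55 members, 44 collagen genes and 11 laminin genes, in the developing mouse retina. The members were all genes with a Gene ID in the deposited table whose symbol has the form of a collagen alpha chain (Col, a type number, a, a chain number) or of a laminin alpha, beta or gamma chain (Lama, Lamb or Lamc and a number). They were chosen by name and not by their levels, from 22219 symbols with a Gene ID, and where a symbol had more than 1 entry (Lama4) the more abundant entry was taken. Of the 55, 52 reached 1 CPM (reads of a gene scaled to a fixed library total) in at least 3 libraries and were tested. Col13a1, Col16a1 and Col28a1 did not, and no library held more than 10 reads of any of these.

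RNA-seq was performed on whole retina of wild-type C57BL/6J mice, taken in the light phase, in 27 libraries at 7 ages. There were 3 libraries at embryonic day 14 (E14), 3 at E17, 4 at postnatal day 1 (P1), 3 at P6, 4 at P15, 4 at P28 and 6 at P60. Most libraries were made from pooled retinas of several animals, and at P60 the study describes both pools and individual mice without the labels naming which library is which. Embryonic and P1 samples were of mixed sex and later ones were male, so sex and age cannot be told apart between these stages. E14 and E17 are called embryonic below, and P15, P28 and P60 mature.

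Collagens are trimers of alpha chains, and laminins are cross-shaped trimers of an alpha, a beta and a gamma chain. Laminins and collagen IV form the sheet-like networks of basement membranes, which in the eye include the inner limiting membrane between retina and vitreous, the walls of retinal vessels and Bruch's membrane. Other collagens form fibrils (types I, II, III, V, XI, XXIV and XXVII), sit on fibrils (such as IX and XII), form beaded or anchoring networks (VI, VII and VIII), span the plasma membrane (XIII, XVII, XXIII and XXV) or lie in basement membranes with glycosaminoglycan chains attached (XV and XVIII, the multiplexins).

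The 6 collagen IV genes lie as head-to-head pairs that are transcribed away from each other, and the short stretches between the partners are shown because the pairs differed in their developmental course. They were read from GRCm38.p6, with gene starts from its annotation. The annotated first exons of Col4a1 (minus strand) and Col4a2 (plus strand) overlap by 22 bases at chr8:11312805-11312826. Col4a4 (minus strand) and Col4a3 (plus strand) are separated by 71 intergenic bases at chr1:82586850-82586920. Col4a6 (minus strand) and Col4a5 (plus strand) are 1308 bases apart, and the 100 bases upstream of each start are at chrX:141474077-141474176, read on the minus strand, and chrX:141475285-141475384, read on the plus strand. Capitals mark GGGCGG or its reverse complement CCGCCC, the core of the GC box, in these 4 sequences:
Col4a1 and Col4a2 overlap: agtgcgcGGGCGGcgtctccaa
Col4a4 to Col4a3: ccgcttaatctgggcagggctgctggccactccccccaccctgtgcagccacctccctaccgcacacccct
upstream of Col4a6: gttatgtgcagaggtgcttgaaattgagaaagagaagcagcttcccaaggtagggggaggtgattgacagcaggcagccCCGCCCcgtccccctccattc
upstream of Col4a5: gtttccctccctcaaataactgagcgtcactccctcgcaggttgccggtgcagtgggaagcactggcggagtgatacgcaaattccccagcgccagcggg
The Col4a4 to Col4a3 stretch held none of the 3 motifs searched on both strands, which were the GC box core, the CCAAT box and the TATA box core TATAAA. RefSeq promoter windows of 300 bases around gene starts were at hand for 40 of the 55 members. Of the 44 windows of these members, 26 held GGGCGG, against 35.7% of all 32851 windows. CCAAT was in 14 of the 44, against 37.4%, and TATAAA in 5, against 13.6%. By gene, the motifs were found for 25, 14 and 5 of the 40 members. Among the collagen IV genes with a window, Col4a1, Col4a2, Col4a5 and Col4a6 had GGGCGG and Col4a1, Col4a2 and Col4a5 had CCAAT. Such matches describe the letters only and say nothing of binding.

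The recovered depth was 7076646 to 11330762 reads per library, so that 3 reads corresponded to at most 0.424 CPM. The retinal markers Pax6 and Crx were detected at every age. Of the lens crystallins, Cryaa was at 0 in all libraries of E17, P1, P15 and P28, and the fibroblast gene Dcn did not exceed 1.08 CPM in any library. Other markers of neighboring tissues were higher. Summed markers of the retinal pigment epithelium reached 67.9 CPM at P15, and those of fibroblasts, sclera and choroid 48.3 CPM at P6. P60 replicates 1 and 2 stood apart from the other P60 libraries, with shared deviations from the P60 mean (r = 0.48 across features), and results that they change are given also without them.

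The first comparison asked how matrix genes of the mature retina differed from those of the embryonic retina. Of the 52 members tested, 15 rose and 11 fell between embryonic and mature retina (limma on log2(CPM + 1), adjusted p under 0.05 and a log2 fold change of at least 1 in size), while 31.0% of all 31760 features passed the same rule, 14.9% higher and 16.1% lower. The higher count differed between settings, with 26 higher and 11 lower by edgeR on recovered reads (23.5% and 19.2% of all features) and 24 higher and 12 lower with a pseudocount of 0.1 (20.7% and 21.7%). The median log2 fold change was 0.47 over the members tested and -0.06 over all features, and by edgeR it was 0.97 and 0.04. Every mature library lay above every embryonic library for 16 members (17.4% of all features) and below for 11 (23.0% of all features). Without P60 replicates 1 and 2, 27 members passed. This count describes the members only and was not set against all features. In bulk tissue, fewer cells of a type and less RNA per cell cannot be told apart, and this holds for every change below.

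**Figure D1:**
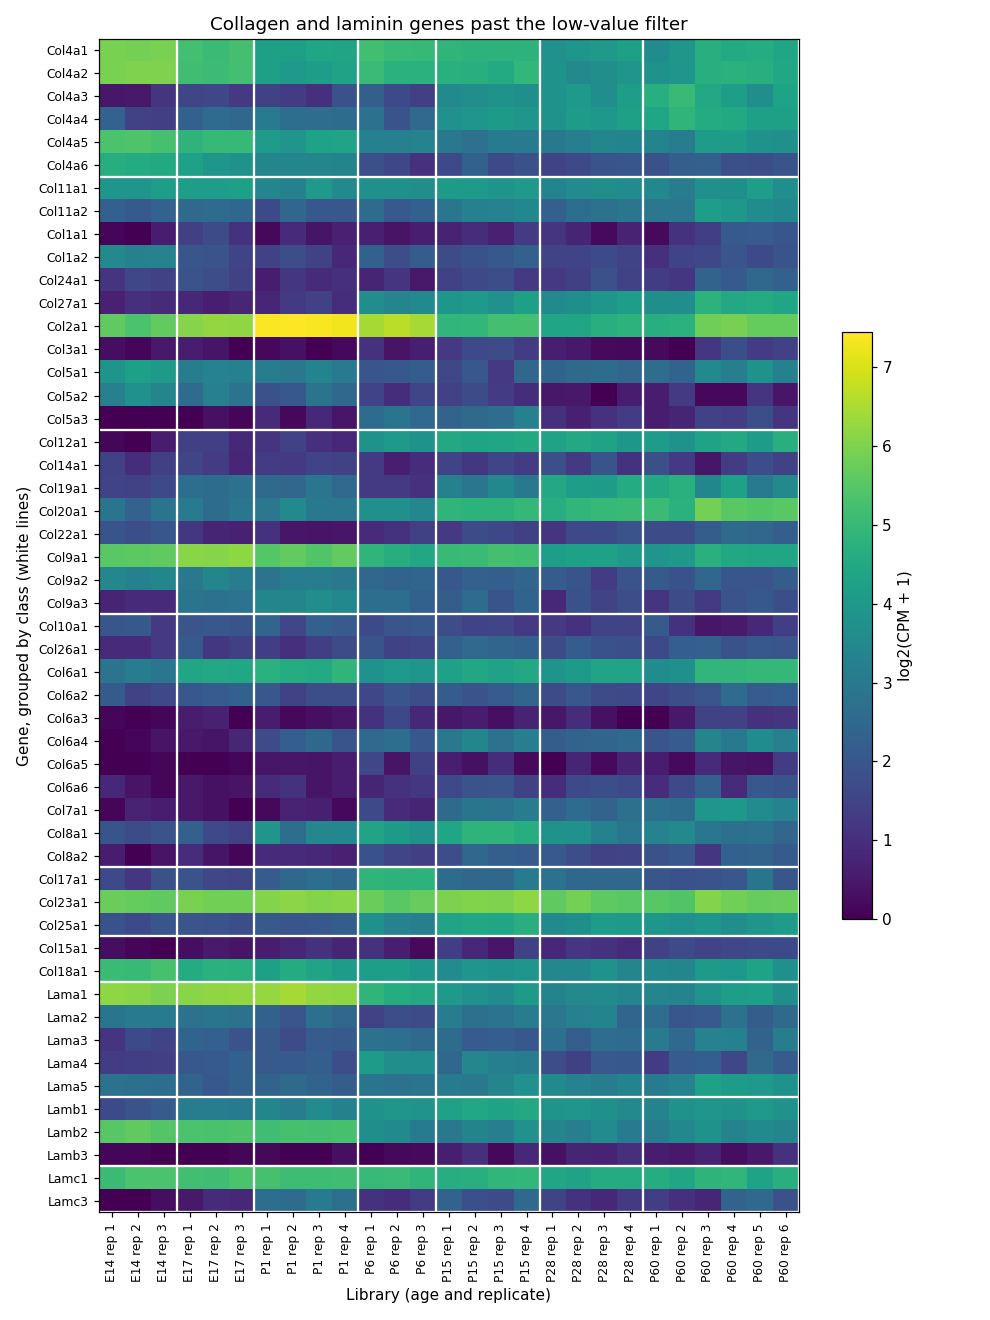
Heat map of log2(CPM + 1) for 51 of the 52 collagen and laminin genes tested (rows, grouped by class between white lines) in the 27 libraries (columns, ordered by age). Lama1 and Lamb2 are bright up to P1 and dimmer from P6, Col12a1 and Col27a1 brighten from P6 onward, and Col2a1 is brightest at P1, where it reached 166 CPM on average.

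**Figure D2:**
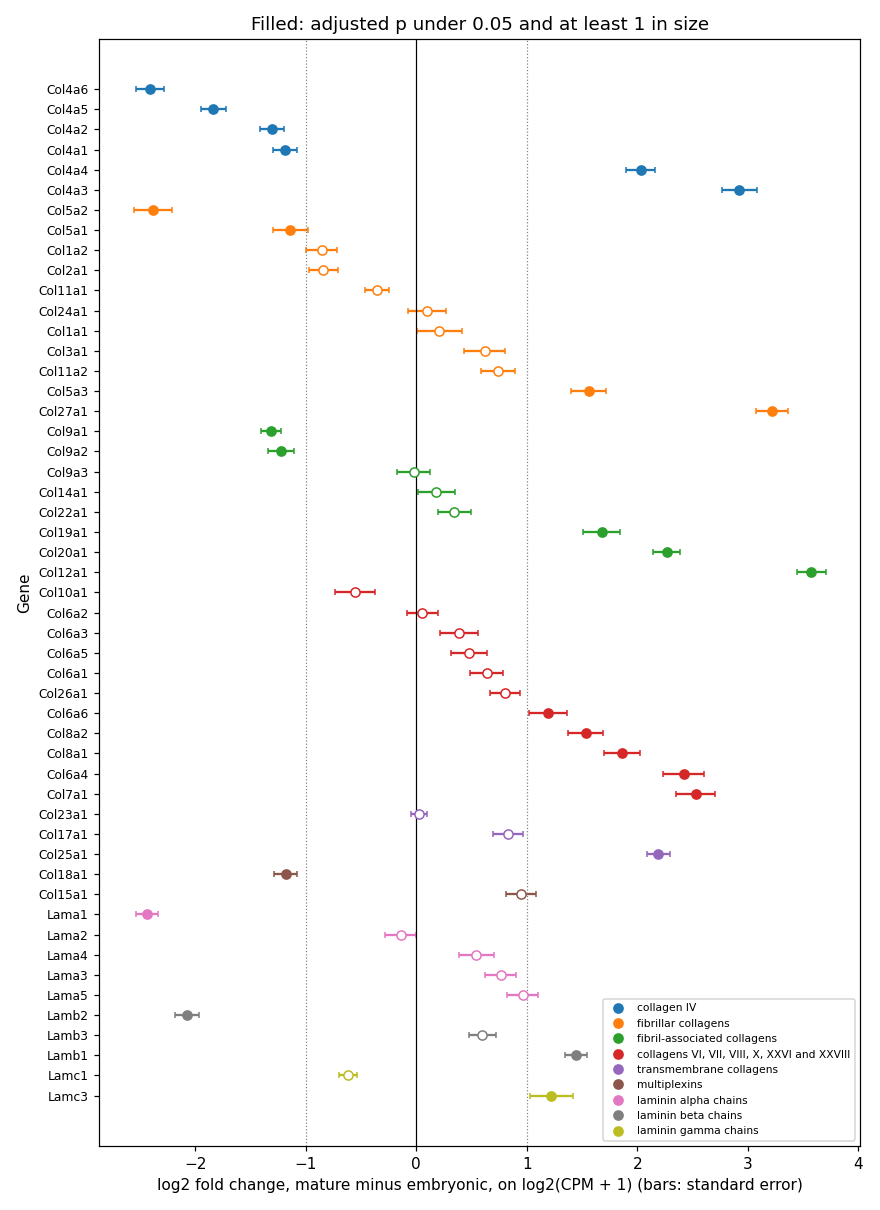
Log2 fold change on the log2(CPM + 1) scale between mature (14 libraries) and embryonic (6 libraries) retina for 51 of the 52 members tested, grouped and colored by class. Bars are standard errors, dotted lines mark 1 and -1, and filled points passed both thresholds, which 15 members did on the right and 11 on the left.

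The collagen IV genes divided by pair. The chains of basement membranes throughout the body, alpha 1 and alpha 2, and the X-linked alpha 5 and alpha 6 fell, while alpha 3 and alpha 4, which join alpha 5 in the specialized network best known from the kidney glomerulus, rose. All 6 passed the test, 4 lower and 2 higher in mature retina, beside 16.1% lower and 14.9% higher of all features. In none did the embryonic and mature libraries overlap. Of all features, 17.4% had every mature library above every embryonic one, and 23.0% had every mature library below. Col4a1 was at 60.1, 58.5 and 60.1 CPM in the E14 libraries and at 36.4, 33.0 and 37.2 CPM at E17. Its mature levels were 26.9 to 28.1 CPM at P15, 12.5 to 17.7 CPM at P28, and 11.1 (lowest), 21.2 (median) and 24.2 CPM (highest) at P60. The decline was not steady, since Col4a1 averaged 18.8 CPM ± 1.13 (SD, n = 4) at P1 and 32.8 CPM ± 2.52 (n = 3) at P6. The log2 difference of 0.77 between these ages was under the size set for a call. Between mature and embryonic retina Col4a1 fell by 1.19 ± 0.11 (SE) on the log2 scale (adjusted p = 1.17e-11) and Col4a2 by 1.30 ± 0.11 (adjusted p = 2.06e-12).

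Col4a2 followed Col4a1 closely, from a mean of 62.2 CPM at E14 to 17.1 at P1, 28.2 at P6 and 20.5 at P60. The log2 ratio of Col4a2 to Col4a1 was taken within a library as log2 of (CPM + 1) over (CPM + 1). The added 1 leaves such ratios not fully free of library scaling, most for genes at low CPM. This ratio averaged 0.02 ± 0.06 (SD) in the 6 embryonic and -0.07 ± 0.21 in the 14 mature libraries. The difference of -0.09 did not pass a two-sided exact permutation test over libraries (p = 0.33, 38760 arrangements), so no shift between these groups was detected. The mature spread includes differences between ages, with mean ratios of -0.10 at P15, -0.27 at P28 and 0.08 at P60. At P6, outside both groups, the ratio was -0.28 to -0.13, below the embryonic range of -0.06 to 0.11.

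Col4a3 was at 0.40, 0.42 and 1.16 CPM at E14 and at 1.94, 2.03 and 1.35 CPM at E17. At P15 it was at 10.7 to 12.9 CPM, at P28 at 11.6 to 16.8 CPM, and at P60 at 12.1 (lowest), 20.3 (median) and 31.4 CPM (highest). The groups were far apart, with a mature mean 12.9 times the embryonic one and a log2 fold change of 2.92 ± 0.16 (adjusted p = 3.78e-17). Its neighbor Col4a4 rose in the same comparison, by 2.03 ± 0.13 on the log2 scale (adjusted p = 3.96e-15), from 2.53 CPM ± 1.37 at E14 to 21.5 CPM ± 3.94 at P60. For both genes the step from P6 to P15, the interval that includes eye opening, passed the test, with log2 fold changes of 1.91 ± 0.25 for Col4a3 and 1.504 ± 0.204 for Col4a4. Exons of Col4a3 overlap 563 bases of C430014B12Rik on the opposite strand, and whether counting used the strand is not given in the sources used here.

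Col4a5 was at 39.5, 40.7 and 37.8 CPM at E14, at 27.4 to 31.0 CPM at E17 and at 13.6 to 19.5 CPM at P1. It reached 5.79 to 7.28 CPM at P15 and was at 7.89 (lowest), 12.6 (median) and 16.1 CPM (highest) at P60. Col4a6 declined further, from 23.8, 22.9 and 21.9 CPM at E14 to 1.10 to 2.54 CPM at P6, and did not exceed 3.95 CPM in any mature library. Between mature and embryonic retina Col4a5 fell by 1.84 ± 0.11 and Col4a6 by 2.41 ± 0.13 on the log2 scale. For Col4a6 the step from P1 to P6 was the largest fall of any member at that stage, -1.89 ± 0.20 on the log2 scale (adjusted p = 1.69e-09). As level per length (mean CPM per kb of exon), Col4a5 averaged 5.13 in embryonic retina, Col4a6 2.38, Col4a4 0.33 and Col4a3 0.12. In mature retina Col4a4 (1.60), Col4a3 (1.58) and Col4a5 (1.37) stood close together and Col4a6 was at 0.34.

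**Figure D3:**
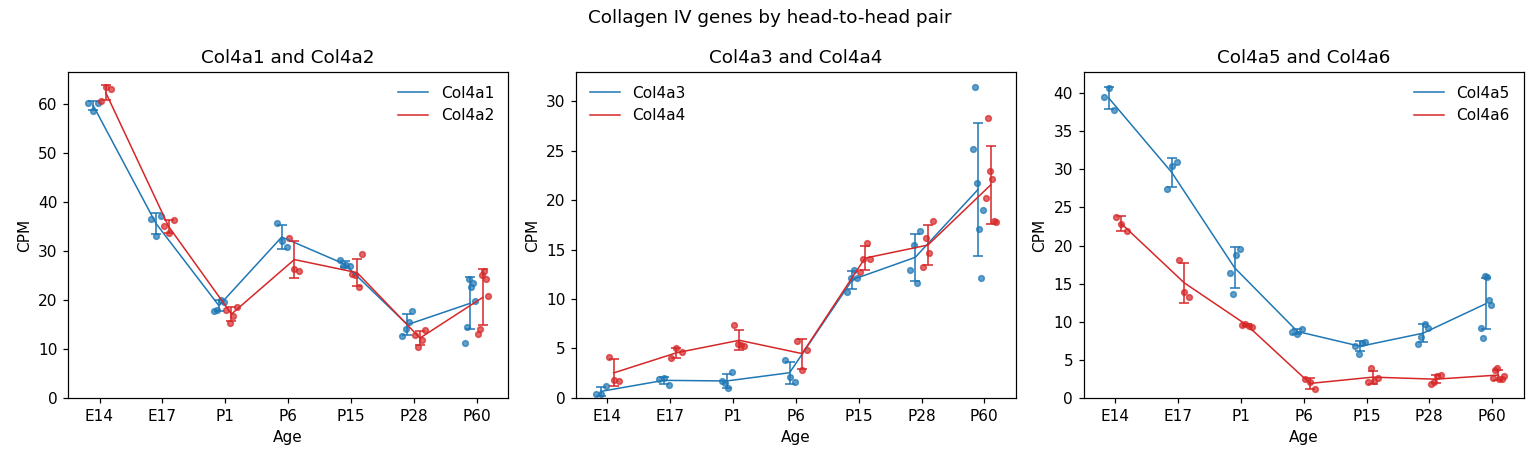
CPM of the 6 collagen IV genes by age, 1 panel for each head-to-head pair, with points for libraries, lines through age means and bars for SD (n = 3 to 6). CPM is not corrected for gene length, so each line compares ages within a gene: Col4a1 and Col4a2 overlie each other with higher means at P6 than at P1, Col4a3 and Col4a4 step up between P6 and P15, and Col4a5 and Col4a6 decline from E14 to P6.

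Of the 11 laminin genes, 2 rose (Lamb1 and Lamc3) and 2 fell (Lama1 and Lamb2) between embryonic and mature retina, shares near the 14.9% and 16.1% of all features. Lama1 encodes the alpha 1 chain, the laminin alpha chain of embryonic basement membranes and of the inner limiting membrane. It was at 71.6, 68.1 and 61.4 CPM at E14 and at 73.7 to 86.0 CPM at P1. It was then at 28.3, 23.6 and 21.4 CPM at P6, at 11.1 to 15.7 CPM at P15, at 9.19 to 10.7 CPM at P28, and at 9.29 (lowest), 12.8 (median) and 17.4 CPM (highest) at P60. No mature library reached the lowest embryonic one. The fall between mature and embryonic retina was 2.44 ± 0.10 on the log2 scale (adjusted p = 2.95e-20), the largest of any member on the log2(CPM + 1) scale. As a ratio of mean CPM, mature over embryonic, Lama1 was at 0.18, after Col5a2 (0.10) and Col4a6 (0.14). For Lama1 the step from P1 to P6 was -1.63 ± 0.16.

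Per kb of exon, the other alpha chains averaged 0.21 to 0.42 CPM in embryonic retina, against 7.17 for Lama1, and 0.37 to 0.91 in mature retina, against 1.26. Lama5 averaged 4.73 CPM over the embryonic ages and 10.4 CPM over the mature ages, every mature library lay above every embryonic one, and its log2 fold change of 0.96 ± 0.14 (adjusted p = 2.86e-07) was just under the size set for a call. Lama4, the alpha chain of vessel walls, rose between P1 and P6 from 2.37 to 3.73 CPM to 11.4 to 16.1 CPM and fell between P15 and P28 from 4.68 to 10.01 CPM to 1.69 to 3.25 CPM. Lama2, known from muscle and nerve, was lowest at P6 (2.18 CPM ± 0.42) and rose to 6.80 CPM ± 1.09 at P15 (log2 fold change 1.30 ± 0.22). Lama2 differed by -0.14 ± 0.14 between mature and embryonic retina and did not pass the test.

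Among the beta chains, Lamb2 fell and Lamb1 rose. Lamb2, the beta 2 chain of mature neuromuscular, kidney and retinal basement membranes, was at 44.3, 48.5 and 42.8 CPM at E14, 38.2 to 40.1 CPM at E17 and 34.8 to 37.5 CPM at P1. It was at 12.0, 10.6 and 7.17 CPM at P6 and remained between 6.83 and 13.05 CPM in all mature libraries. Lamb1, the beta 1 chain, was at 2.20, 2.74 and 3.37 CPM at E14, 7.45 to 7.97 CPM at E17, 13.00 to 14.4 CPM at P6 and 18.1 to 21.6 CPM at P15. At P60 Lamb1 was at 9.05 (lowest), 13.2 (median) and 14.97 CPM (highest). Lamb2 fell by 2.07 ± 0.11 (adjusted p = 1.64e-17) and Lamb1 rose by 1.45 ± 0.10 on the log2 scale (adjusted p = 1.56e-14).

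The log2 ratio of Lamb2 to Lamb1 gave the shift within each library, and since CPM is not corrected for length its sign does not order the levels of the chains. It was 3.33 to 3.82 at E14, 2.13 to 2.28 at E17 and 1.67 to 2.12 at P1, and was below 0 in every library from P6 onward, between -1.28 and -0.09. It differed by -3.48 between mature and embryonic retina, 11.2-fold on the (CPM + 1) scale. This had p = 2.58e-05 in the exact permutation test, the smallest it can give, and an adjusted p of 0.00013 over the 5 ratios tested. Per kb of exon, Lamb2 averaged 6.94 CPM and Lamb1 0.53 CPM in embryonic retina, against 1.55 and 1.52 CPM in mature retina. Lamb3, the beta chain of epidermal laminin, stayed at or under 1.10 CPM in every library.

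Lamc1 encodes the gamma 1 chain found in most laminins, and it remained among the higher members at all ages, from 37.4 CPM ± 3.99 at E14 to 23.9 CPM ± 4.12 at P60. Its log2 fold change of -0.62 ± 0.08 (adjusted p = 4.59e-08) was under the size set for a call, although no mature library reached an embryonic one. Lamc3, a gamma chain reported at the retinal surface and in photoreceptor layers, was highest at P1. It was at 0, 0 and 0.21 CPM at E14, at 5.17 to 7.46 CPM at P1, at 0.97 to 1.52 CPM at P6 and at 2.31 to 4.81 CPM at P15. The steps up at P1 (2.02 ± 0.30) and down at P6 (-1.65 ± 0.30) on the log2 scale both passed the test. Exons of Lamc3 overlap 382 bases of Gm13441 on the opposite strand.

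**Figure D4:**
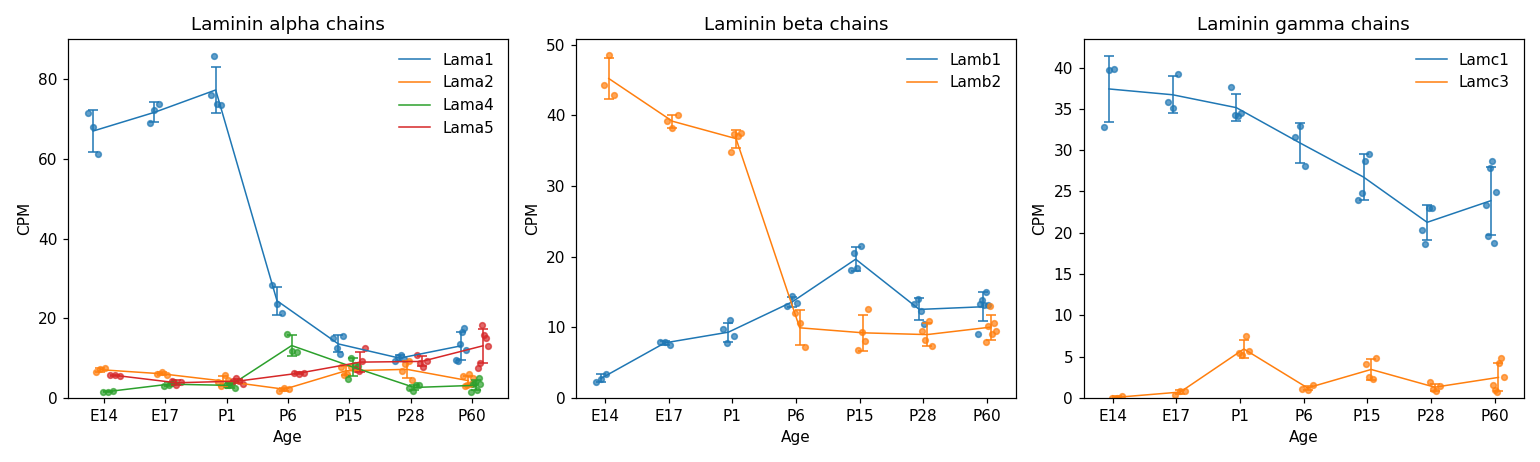
CPM of laminin alpha, beta and gamma chain genes by age, with points for libraries, lines through age means and bars for SD (n = 3 to 6). Lama1 and Lamb2 drop between P1 and P6, Lamb1 climbs to P15 (19.6 CPM on average), and Lamc1 declines slowly; Lama3 and Lamb3 are not drawn, and CPM is not corrected for gene length.

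Among the 11 fibrillar collagen genes, 2 rose (Col5a3 and Col27a1) and 2 fell (Col5a1 and Col5a2) between embryonic and mature retina, again near the 14.9% and 16.1% of all features. Col2a1, the cartilage and vitreous collagen, had the highest level per length of all members at P1, 17.9 CPM per kb of exon. It was at 48.5, 39.5 and 49.4 CPM at E14, 67.3 to 74.8 CPM at E17, 156 to 173 CPM at P1, 85.5 to 101 CPM at P6, 29.0 to 37.1 CPM at P15 and 19.9 to 27.03 CPM at P28. The steps at P1 (1.20 ± 0.20, adjusted p = 8.35e-05) and at P15 (-1.44 ± 0.20, adjusted p = 1.05e-06) passed the test. The step between P1 and P6 was not called, although every P1 library lay above every library of E17 and P6. At P60 the libraries divided, with replicates 1 and 2 at 24.4 and 25.8 CPM, within the range of P28, and the other 4 at 49.997 to 59.4 CPM.

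Col27a1, a fibrillar collagen of cartilage, passed the test at 1 step, between P1 and P6. No library up to P1 exceeded 1.70 CPM, and none from P6 onward was under 9.52 CPM, with 11.4, 9.52 and 10.5 CPM at P6. Its log2 fold change between mature and embryonic retina was 3.22 ± 0.15 (adjusted p = 3.87e-19). Col5a3 was at 0 in all 3 libraries at E14 and at no more than 3 reads at E17. It was at 5.23, 6.38 and 4.83 CPM at P6, at 4.15 to 8.38 CPM at P15 and at 0.56 to 1.51 CPM at P28, so that its steps at P6 (2.10 ± 0.24) and P28 (-1.69 ± 0.23) on the log2(CPM + 1) scale passed in opposite directions.

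The ratio of chains that assemble with each other shifted for 3 of the collagen pairs. Collagen V is mainly a trimer of alpha 1 and alpha 2 chains, and its genes Col5a1 and Col5a2 averaged 15.4 and 10.2 CPM at E14, but 8.34 and 0.63 CPM at P60. The log2 ratio of Col5a2 to Col5a1 differed by -1.36 between mature and embryonic retina (exact permutation test, adjusted p = 0.020). The ratio at P15 still overlapped that of the embryo, at -1.50 to 0.07 against -0.64 to -0.08, and was -3.39 to -1.12 at P28 and P60. For Col1a2 to Col1a1 the difference was -1.14 (adjusted p = 0.022) and for Col6a2 to Col6a1 -0.60 (adjusted p = 0.020). Both rest on E14, since the E17 ratios lay within the mature ranges. For Col1a2 to Col1a1 they were 0.18 to 0.55, against -0.47 to 1.48 in mature libraries. For Col6a2 to Col6a1 they were -2.38 to -2.14, against -2.95 to -1.98. Col1a2 was at 10.4, 8.44 and 8.95 CPM at E14 and did not exceed 3.96 CPM in any later library, while Col1a1, the other chain of the main collagen of bone, tendon and sclera, was at 0 to 0.53 CPM at E14 and at most 3.43 CPM in any library. In the same exact permutation test the difference of Col1a2 to Col1a1 was -0.82, -0.84 and -0.95 without E14 replicate 1, 2 or 3 (adjusted p = 0.092, 0.087 and 0.068) and that of Col6a2 to Col6a1 -0.40 and -0.50 without replicate 1 or 3 (adjusted p = 0.092 and 0.068). Col3a1, which accompanies collagen I in connective tissue, did not exceed 2.43 CPM.

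Col11a1, a partner of collagen II in cartilage and vitreous fibrils, was at 7.75 to 17.6 CPM in all libraries and differed by -0.35 ± 0.11 between mature and embryonic retina, under the size set for a call. Of the 8 fibril-associated collagen genes tested, 3 rose (Col12a1, Col19a1 and Col20a1) and 2 fell (Col9a1 and Col9a2). Of all features, 14.9% rose and 16.1% fell in the same comparison. Col9a1, a chain of the collagen that coats collagen II fibrils in cartilage and vitreous, had the highest level per length of all members in embryonic retina, 11.5 CPM per kb of exon. It was at 45.9 to 48.8 CPM at E14 and 67.7 to 71.7 CPM at E17, and declined to 15.5 to 18.1 CPM at P28. Between mature and embryonic retina it fell by 1.32 ± 0.09 on the log2 scale (adjusted p = 1.75e-14).

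The third chain of the same collagen took another course. Col9a3 was at 0.70, 0.84 and 0.84 CPM at E14, 5.82 to 6.34 CPM at E17, 9.58 to 11.6 CPM at P1 and 0.80 to 2.67 CPM at P28. Its step at E17 (1.98 ± 0.25, adjusted p = 3.37e-07) was the largest rise of any member between E14 and E17 on the log2(CPM + 1) scale. Between mature and embryonic retina it differed by -0.02 ± 0.15, a value whose sign turned with the scaling and the pseudocount. The exons of Col9a3 overlap 234 bases of Tcfl5 on the opposite strand.

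Col12a1, a collagen that binds to fibrils in tendon and other connective tissue, had the largest rise of all members between embryonic and mature retina on the log2(CPM + 1) scale, which understates changes of genes near 0 such as Col5a3. The log2 fold change of Col12a1 was 3.57 ± 0.13 (adjusted p = 7.20e-22). Col12a1 was at 0.10, 0 and 0.53 CPM at E14 and at 0.83 to 1.76 CPM at E17 and P1. At P6 it was at 13.3, 15.4 and 12.8 CPM, at P15 at 19.5 to 22.1 CPM and at P60 at 12.96 (lowest), 17.6 (median) and 24.6 CPM (highest). Its largest step was between P1 and P6, where the log2 fold change was 2.76 ± 0.20. Col19a1 rose, fell and rose again, with means of 1.90 CPM at E14, 5.54 at E17, 1.31 at P6 and 19.4 at P28, and each of its steps at E17, P6, P15 and P28 passed the test. At P60 its libraries ranged from 7.14 to 25.3 CPM. Col20a1 rose from 5.54 CPM ± 1.24 at E14 to 41.7 CPM ± 11.4 at P60 (log2 fold change 2.27 ± 0.12), and at 6.39 CPM per kb of exon it was second only to Col23a1 among the members in mature retina.

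**Figure D5:**
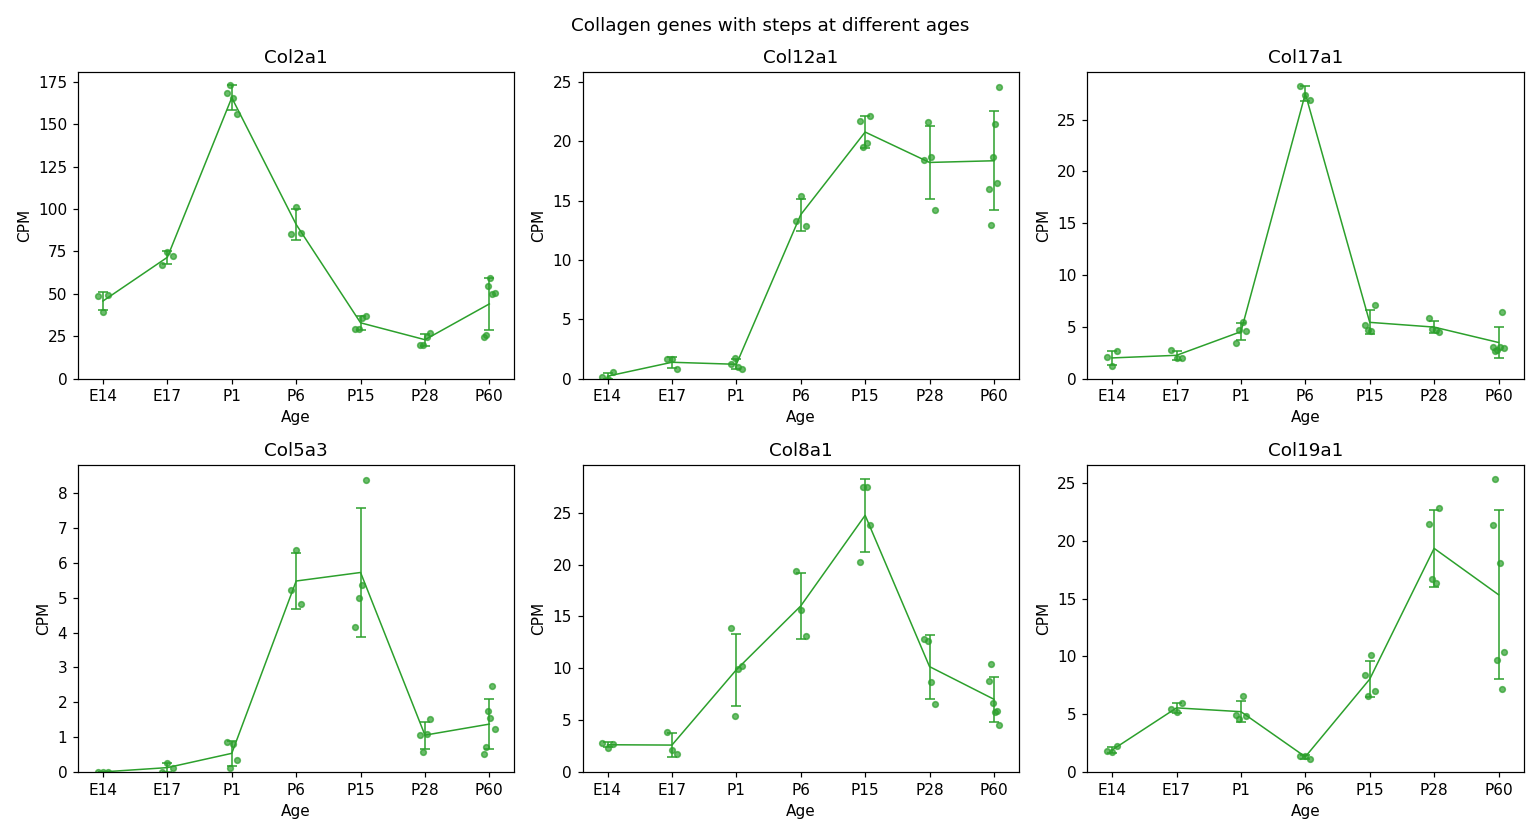
CPM by age for 6 collagen genes whose steps fell at different ages, with points for libraries, lines through age means and bars for SD (n = 3 to 6). Col2a1 peaks at P1 and Col17a1 at P6 (27.5 CPM on average), Col12a1 steps up between P1 and P6 and stays, Col5a3 and Col8a1 are highest at P15 and lower at P28, and Col19a1 falls at P6 before its highest level at P28.

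Of the 11 tested genes of collagens VI, VII, VIII, X and XXVI, 5 rose between embryonic and mature retina and none fell. Of all features, 14.9% rose and 16.1% fell. The median log2 fold change of the 11 was 0.80, against -0.06 over all features. Col6a4 rose by 2.42 ± 0.18 on the log2 scale and Col7a1, the anchoring-fibril collagen of skin, by 2.53 ± 0.18, and Col6a6 and Col8a2 rose as well. Col8a1, a network collagen of corneal and vascular basement membranes, was at 1.76 to 3.89 CPM in the embryonic libraries, 5.42 to 13.9 CPM at P1, 20.2 to 27.5 CPM at P15 and 4.53 to 10.4 CPM at P60. Its steps at P1 (1.58 ± 0.26) and P28 (-1.24 ± 0.24) passed the test. Col6a1 was at 6.20, 7.91 and 6.53 CPM at E14 and at 20.1 to 21.7 CPM at E17, a log2 fold change of 1.48 ± 0.25 (adjusted p = 5.43e-05). The other collagen VI chain measured in the ratio, Col6a2, was at 1.69 to 5.08 CPM in all libraries.

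The membrane-spanning collagens took different courses. Col23a1 was at 42.2 to 71.3 CPM in every library and differed by 0.03 ± 0.07 between mature and embryonic retina. It was the member with the highest level per length in mature retina, 9.73 CPM per kb of exon, and its lowest and highest age means, 49.7 CPM at P28 and 67.6 CPM at P1, were 1.36-fold apart. Col25a1, a neuronal collagen, rose at P6 and again at P15, from 2.90 to 3.55 CPM at P1 to 8.14 to 12.4 CPM at P6 and 19.4 to 24.6 CPM at P15. The second step, 1.05 on the log2 scale, was 0.97, 0.99 and 0.93 without P15 replicate 4, P6 replicate 2 or P6 replicate 3, under the size set for a call. Between mature and embryonic retina its log2 fold change was 2.19 ± 0.10. Col17a1, the hemidesmosome collagen of epithelia, had a single sharp maximum at P6. It was at 3.43 to 5.43 CPM at P1, at 28.3, 27.4 and 26.9 CPM at P6 and at 4.62 to 7.15 CPM at P15, with log2 fold changes of 2.38 ± 0.21 (adjusted p = 8.50e-11) and -2.16 ± 0.21 (adjusted p = 1.47e-09) on the 2 sides. The multiplexin Col18a1, the source of endostatin, fell from 34.1 CPM ± 3.25 at E14 to 13.6 CPM ± 3.54 at P60 (log2 fold change -1.18 ± 0.11 between mature and embryonic retina), and Col15a1 did not exceed 2.25 CPM.

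The steps between neighboring ages were uneven. Between E14 and E17, 5 members rose and 1 fell (3.60% of all features passed, 2.90% higher and 0.702% lower). Between E17 and P1, 4 rose and none fell (1.84%, with 1.23% higher and 0.614% lower). Between P1 and P6, 6 rose (Col5a3, Col12a1, Col17a1, Col25a1, Col27a1 and Lama4) and 6 fell (Col4a6, Col5a1, Col19a1, Lama1, Lamb2 and Lamc3), while 13.0% of all features passed, 6.30% higher and 6.74% lower. Between P6 and P15, 7 rose and 2 fell (8.05%, with 4.74% higher and 3.31% lower). Between P15 and P28, 1 rose (Col19a1) and 5 fell (Col3a1, Col4a2, Col5a3, Col8a1 and Lama4), against 0.384% of all features, 0.164% higher and 0.220% lower. Some of these calls were lost when 1 library was left out. The step of Col1a1 at E17 (1.16) had adjusted p of 0.083, 0.117, 0.065 and 0.126 in limma without E14 replicate 1 or 2 or E17 replicate 1 or 2, and that of Col3a1 at P28 (-1.11) had 0.057, 0.067, 0.057 and 0.067 without P15 replicate 2 or 3 or P28 replicate 3 or 4. The step of Col4a2 at P28 (-1.01) was -0.94, -0.94 and -0.99 without P15 replicate 4, P28 replicate 2 or P28 replicate 3, and that of Col5a1 at P6 (-1.06) was -0.99 without P1 replicate 3. The highest age mean was at E14 for 11 of the 52 members, at E17 for 2, at P1 for 7, at P6 for 5, at P15 for 11, at P28 for 4 and at P60 for 12.

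Between P28 and P60 no member passed both thresholds (limma), while 0.453% of all features did (0.0756% higher and 0.378% lower), and 21 collagen and 4 laminin genes had an unadjusted p under 0.05, as did 29.4% of all features. The adjusted p alone was under 0.05 for 9 members, among 12.9% of all features. With edgeR on the recovered reads 4 members were called higher at P60 (Col1a1, Col2a1, Col7a1 and Col11a2), with 0.579% of all features higher. In limma Col1a1 was called without P60 replicate 1 (log2 fold change 1.05) and Col7a1 without P60 replicate 2 (1.002), and without P60 replicates 1 and 2 limma called 5 higher (Col1a1, Col2a1, Col3a1, Col7a1 and Col11a2), when 3.67% of all features passed. Col6a1 shows the division, at 11.4 and 12.4 CPM in replicates 1 and 2 and 29.0 to 30.1 CPM in the other 4, against 13.6 to 19.2 CPM at P28. The study describes 2 of the P60 samples as pools and 4 as individual mice. Whether replicates 1 and 2 are the pooled samples is not given in the labels, and the part of pooling in this division was not tested.

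Markers of vessel cells moved in the same steps as several members. Of 7 tested endothelial markers, 5 rose between P1 and P6 and 3 fell between P15 and P28, and of 8 pericyte and smooth muscle markers 2 rose and 3 fell. Cdh5, an endothelial cadherin, averaged 0.66 CPM at P1, 6.40 at P6, 4.21 at P15 and 1.23 at P28, and the pericyte gene Rgs5 3.37, 60.8, 87.4 and 31.7 CPM. Nid1, which links laminin to collagen IV, averaged 2.87, 14.9, 8.59 and 1.17 CPM, beside Lama4 at 3.14, 13.1, 7.74 and 2.62 CPM and Col5a3 at 0.53, 5.48, 5.72 and 1.06 CPM. The summed endothelial markers ran from 423 to 492 CPM at P1, 286 to 296 CPM at P6, 213 to 250 CPM at P15 and 206 to 227 CPM at P28, of which Kdr alone averaged 457, 238, 124 and 134 CPM. The summed pericyte markers ran from 14.5 to 18.3, 66.8 to 95.2, 113 to 131 and 43.2 to 51.8 CPM. Emcn was at 0 in all E14 and P1 libraries, and Kcnj8 was at 0 in all libraries up to P1. The part of vessel cells in the levels of Col4a1, Col4a2, Col5a3 and Lama4 was not tested.

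Markers of neighboring tissues also moved. Of 7 tested markers of the retinal pigment epithelium (RPE), 2 rose at P6 and 2 fell at P28, and the sum of the 8 in the table ran from 8.45 to 17.9 CPM at P1, 28.9 to 48.0 CPM at P6, 43.2 to 67.9 CPM at P15 and 24.5 to 33.6 CPM at P28, with Rpe65 at or under 0.42 CPM up to P1. Of the 4 tested fibroblast, sclera and choroid markers, 2 rose and 1 fell at P6 and none passed at P28. Their sum in the table was 22.7 to 26.5 CPM at P1, 42.0 to 48.3 CPM at P6, 12.9 to 17.9 CPM at P15 and 13.4 to 15.6 CPM at P28, most of it Pdgfra, which retinal astrocytes also express. Lens markers were at a summed 1.97 to 7.97 CPM in all libraries, and none of the 3 tested passed at any step. The 1 tested marker of the ciliary epithelium, Optc, passed at no step. Between embryonic and mature retina 5 of the 6 Muller glia markers rose, and of the 4 astrocyte markers 3 rose and 1 fell. The part of these tissues in the members' levels was not tested.

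Genes that process and bind these proteins were compared between embryonic and mature retina as well. Of 28 genes for collagen-processing enzymes and chaperones 5 rose and 5 fell, near the 14.9% and 16.1% of all features. Serpinh1, the collagen chaperone HSP47, went from 128 CPM ± 3.72 at E14 to 3.81 CPM ± 1.03 at P60 and fell by 4.08 ± 0.10 on the log2 scale (adjusted p = 2.77e-26). Adamts3, a procollagen N-proteinase, rose from 5.62 CPM ± 0.49 at E14 to 75.8 at P6 and 137 CPM at P15 (log2 fold change 4.25 ± 0.07). Of 11 tested basement membrane partners 2 rose and 4 fell, with Egflam (pikachurin, a dystroglycan ligand at the photoreceptor synapse) rising from 14.3 to 161 CPM between E14 and P60 and the fibulin gene Fbln1 falling from 26.8 to 1.13 CPM. Of 13 receptors 2 rose and 5 fell. The laminin receptor subunit Itga6 fell by 3.54 ± 0.14 and the collagen receptor subunit Itga1 rose by a log2 fold change of 2.52 ± 0.14. Of 12 matrix proteases and inhibitors 4 rose and 4 fell, with the gelatinase gene Mmp9 at 0 to 0.21 CPM at E14 and 3.28 to 7.03 CPM at P60, and the membrane-bound collagenase gene Mmp14 falling from 99.6 to 14.0 CPM.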

How the data were processed

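Total RNA of whole mouse retina was used by the authors for SMARTer total RNA libraries, single-end sequencing on an Illumina instrument and alignment to GRCm38/mm10 with STAR. They deposited 1 table in CPM, in which each feature's reads are scaled to a common library total. The annotation behind the table and the use of strand in counting are not given in the sources used here. Exons of 13 members overlap a gene on the opposite strand. Dividing CPM by what a single read is worth in that library gave whole numbers (tolerance 0.05) for 100% of values, and reads recovered in this way were used for depth and edgeR only. Depth limits cover counting error only.

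After a filter of 1 CPM or more in 3 or more libraries (31760 of 38168 features), limma 3.58.1 in R 4.3.3, with its trend option, modelled log2(CPM + 1) by age over the 27 libraries together. P-values were two-sided and adjusted by Benjamini-Hochberg across every feature kept, and a call needed an adjusted p under 0.05 and a log2 fold change of at least 1 in size. Fold changes on this scale understate those of low genes. Embryonic and mature groups were means of age means. Ratios of 5 chain pairs were tested by exact permutation over libraries, adjusted over the 5. Nothing in the labels ties libraries to separate litters, so p-values measure the spread between these libraries, which may in part be technical. Same-numbered libraries of different ages did not deviate together (69 pairs, median r = -0.0018, range -0.13 to 0.17, 3 above 0.1), so replicate numbers were not taken as pairs. Level per length used the exon union of the GRCm38 annotation.

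Members and lists were chosen with earlier results of these data known. Genes named are the 3 most abundant per class, the 5 largest rises and 5 largest falls, the 2 largest steps per direction between neighboring ages, the ratio chains and the 2 largest changes per related list. Other genes named as called or as not tested, the rest of collagen IV, Lama3, Col3a1 and the marker genes were named after their values were seen. Alternatives were a pseudocount of 0.1, no filter, a mean of at least 10 CPM, median-of-ratios scaling, edgeR 4.0.16 on recovered reads, no minimum fold change, a fit limited to the ages compared, a replicate block and leaving out each library. EdgeR without E14 replicate 1 and the fit without P60 replicates 1 and 2 were added after the data were seen. On simulated reads with 200 changed genes per comparison limma recovered 159 to 170 with 0 false calls, and edgeR 181 to 199 with 0 to 4. The simulation gave all genes and libraries the same dispersion. Its changed genes averaged at least 1 CPM and changed by 1 fixed size, as many up as down. In the data 31.0% of features were called between embryonic and mature retina, so these rates need not hold there. RefSeq promoter windows and gene sequences came from GRCm38.p6. One member tested is counted but not reported by itself here. Figures used Python 3.11.15 with matplotlib 3.10.9.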

Additional observations from a re-analysis of the deposited data

Results flagged for a closer look

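Among groups of 4 to 6 libraries of the named members and ratios, 8 of 172 groups held 1 library whose gap to the nearest other exceeded Dixon's critical value, while chance gives about 1 in 20. Col17a1 was at 6.46 CPM in P60 replicate 5 and at 2.68 to 3.09 CPM in the other 5 libraries. Col18a1 was at 13.3 CPM in P28 replicate 3 and at 9.55 to 10.1 CPM in the others. At P1, Col20a1 was at 10.5 CPM in replicate 2 (others 6.75 to 7.01 CPM), and replicate 1 was low for Lamb2, at 34.8 CPM (others 37.1 to 37.5 CPM), and high for Lamc1, at 37.7 CPM (others 34.1 to 34.5 CPM). Lamb1 was at 9.05 CPM in P60 replicate 1 and at 13.1 to 14.97 CPM in the other 5 libraries. The log2 ratio of Col4a2 to Col4a1 was 0.028 in P28 replicate 1 and -0.40 to -0.34 in the others. The log2 ratio of Col1a2 to Col1a1 was 1.37 in P15 replicate 3 and 0.92 to 0.97 in the others. The second table entry for Lama4, which entered no comparison, reached 1.35 CPM at most in the 27 libraries.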

How the results depend on the processing

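Counts of members called depended mainly on the thresholds. With a mean of at least 10 CPM required, 18 members were tested and 13 were called between mature and embryonic retina, 2 at E17, 2 at P1, 4 at P6, 4 at P15 and 2 at P28. With no minimum fold change the counts were 45, 13, 11, 31, 22 and 13, and 9 at P60. At P60 12.9% of all features passed this rule. The unadjusted limma p, a looser rule, was under 0.05 for 76.8%, 20.5%, 19.7%, 45.4%, 41.8%, 14.1% and 29.4% of all features in the same order. Counts here without a share of all features beside them describe the members only. A pseudocount of 0.1 gave 36 between mature and embryonic retina and edgeR 37, against 26, with the shares of all features given in the first comparison. The pseudocount gave 14 at E17. EdgeR gave 12 at E17, 15 at P15 and 4 at P60, and without P60 replicates 1 and 2 there were 5 at P60. Leaving out each library in turn gave 26 to 27, 5 to 7, 4 to 5, 11 to 14, 8 to 10, 4 to 6 and 0 to 1 members in the same order, the 1 at P60 without replicate 1 or 2.

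With the replicate block, the log2 ratios of Col1a2 to Col1a1 (-0.93, adjusted p = 0.149), Col5a2 to Col5a1 (-1.05, adjusted p = 0.128) and Col6a2 to Col6a1 (-0.52, adjusted p = 0.128) no longer passed, although the numbers mark no known pairing. Leaving out each library gave -1.46 to -0.82, -1.50 to -1.24 and -0.72 to -0.40 for these, -0.11 to -0.06 for Col4a2 to Col4a1 and -3.63 to -3.30 for Lamb2 to Lamb1.

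Of 83 results of single genes, 64 kept direction and side of the threshold under every setting run, and 3 uncalled ones turned sign between mature and embryonic retina. Col1a1 was at -0.010 with the replicate block, and Col6a2 at -0.034 with the block and -0.021 without E14 replicate 2. Col9a3 was at 0.31 by edgeR, 0.27 by edgeR without E14 replicate 1, 0.033 with median-of-ratios scaling, 0.11 with a pseudocount of 0.1, 0.013 without P60 replicates 1 and 2 and -0.066 to 0.048 with 1 library left out, above 0 without P15 replicate 3, P28 replicate 1, P60 replicate 1 or P60 replicate 3. At this depth members under 0.424 CPM could not be told from 0.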
